A study of Homo sapiens with 8 samples.

Results

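Open chromatin was compared between the SETD2 clones of 2 B cell precursor acute lymphoblastic leukaemia lines. The comparison used 4 ATAC-seq libraries of the 8 in the series: 2 of clone BM_B of 697 and 2 of clone BA of KOPN-8, each labelled heterozygous for a SETD2 knockout. The other 4 libraries, 2 per line, were made from cells carrying the empty guide vector, the controls for the line difference. All libraries of a clone group came from a single clone, so the edit and the history of that clone cannot be told apart. The labels name the duplicates biological replicates without saying how cultures were separated, so spread between them may be technical. Autosomal peaks of the 4 clone lists that shared 1 bp or more merged into 107881 regions, and a region counted as called by each library with a peak inside it. The members are the regions called in both libraries of one clone and in neither of the other, 15269 specific to 697 and 14808 specific to KOPN-8.

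ATAC-seq marks DNA that the Tn5 transposase can reach, chiefly active promoters and enhancers, and the set of open enhancers is a signature of a cell's lineage, stage and driver. KOPN-8 carries a KMT2A-MLLT1 fusion, a driver that acts through HOX and MEIS family genes. SETD2 places the trimethyl mark on lysine 36 of histone H3 along transcribed genes, and the question here was which differences between the lines seen without the edit were seen again between the edited clones. Gene positions in the build of the lists were not used, so regions are named by their hg19 coordinates, counted from 1, and neither the cell identity nor the edit was checked against genes.

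The clone lists held 61010 and 74252 autosomal peaks in 697 and 65163 and 62580 in KOPN-8. The second 697 library had the longest list and the first the shortest, so the KOPN-8 lists lay between them (exact permutation of libraries, two-sided p = 1, n = 2 per group). The control lists held 55277 and 67829 peaks in 697 and 68122 and 61490 in KOPN-8. The list lengths of controls and clones overlapped in each line, and read depth is unknown. The median autosomal peak was 322 and 327 bp wide in the 697 clone and 331 and 330 bp in the KOPN-8 clone. The 697 values were the lower pair, at the smallest p that 2 against 2 libraries allow (exact permutation, two-sided p = 0.333). The Jaccard index of covered bases was 0.632 between the 697 duplicates and 0.682 between the KOPN-8 duplicates, against 0.417 ± 0.0077 (SD over 4 pairs) between the clones of the 2 lines and 0.401 ± 0.00517 between their controls. The lowest clone pair, at 0.409, lay just above the highest control pair, at 0.406. Across arms the mean was 0.415 for the 697 clone with the KOPN-8 controls and 0.399 for the 697 controls with the KOPN-8 clone. The higher means were thus those of the 697 clone lists, with either KOPN-8 group.

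Regions specific to 697 made up 14.2% of the autosomal regions of the clones and regions specific to KOPN-8 13.7%. In the same count over the 4 control lists, 697 had fewer specific regions, 12526 (11.9% of 105555), and KOPN-8 more, 16634 (15.8%). Which line had more specific regions in the clones depended on list length. With all lists cut to 55277 autosomal peaks, 12857 regions were specific to the 697 clone and 13651 to the KOPN-8 clone, so the lean changed sides. Leaving out a clone library loosens the rule, and the counts then reached 30525 for 697 without its replicate 1 and 23400 for KOPN-8 without its replicate 2.

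Line-specific regions were narrower and weaker than shared ones. A shared region merges peaks of 4 lists and a specific one of 2, so the rule itself bears on width and strength. Each peak comes with a value of the authors, read here as its fold over the local background, and peaks were ranked by it as a percentile of their own list. The median width was 362 bp for 697-specific and 356 bp for KOPN-8-specific regions, against 608 bp for the 32059 regions called in all 4 clone libraries. Among shared regions 17.9% were at least 1000 bp wide, compared with 2.15% of 697-specific and 0.763% of KOPN-8-specific ones. Peaks of 4348 regions (28.5%) specific to 697 and 4708 (31.8%) specific to KOPN-8 lay above the 50th percentile in both lists that call them. Of the shared regions, 17290 (53.9%) had peaks above it in all 4 lists. The widest 697-specific region outside chromosome 8 lay at chr9:109625195-109627357, 2163 bp wide with folds of 5.18 and 4.09. The widest KOPN-8-specific region lay at chr10:35929537-35931742, 2206 bp wide with folds of 7.52 and 8.38.

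To follow each line difference from controls to clones, all 8 lists were merged into 128960 autosomal regions. Of these, 12326 (9.56%) were called in both 697 controls and in neither KOPN-8 control, and 16335 (12.7%) the other way round. In the clones 15120 regions (11.7%) were specific to 697 and 14645 (11.4%) to KOPN-8. In 697, 7550 of 12326 (61.3%) persisted in the clones, 4776 vanished and 7570 appeared that the controls had not shown. In KOPN-8, 9362 of 16335 (57.3%) persisted, 6973 vanished and 5283 appeared. Differences that appeared were thus 50.1% of the clone differences of 697 and 36.1% of those of KOPN-8. With lists of equal length the persisting shares were 59.9% and 60.2%, in the opposite order, so the order of the lines depended on list length. Under that setting 5572 differences of 697 appeared and 5041 of KOPN-8. Shares and counts also moved with single libraries, because fewer libraries loosen the rule. The persisting share was 38.2% for 697 without its control 1 and 46.8% without its control 2. For KOPN-8 it was 41.1% without its control 2, 46.2% without its control 1 and 48.6% without 697 control 2. For 697, 15616 vanished without control 1 and 9303 without control 2, and 20990 appeared without clone 1 and 12662 without clone 2. For KOPN-8, 15545 vanished without control 2, 11871 without control 1 and 10591 without 697 control 2, while 12266 appeared without clone 2 and 9874 without clone 1.

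**Figure D1:**
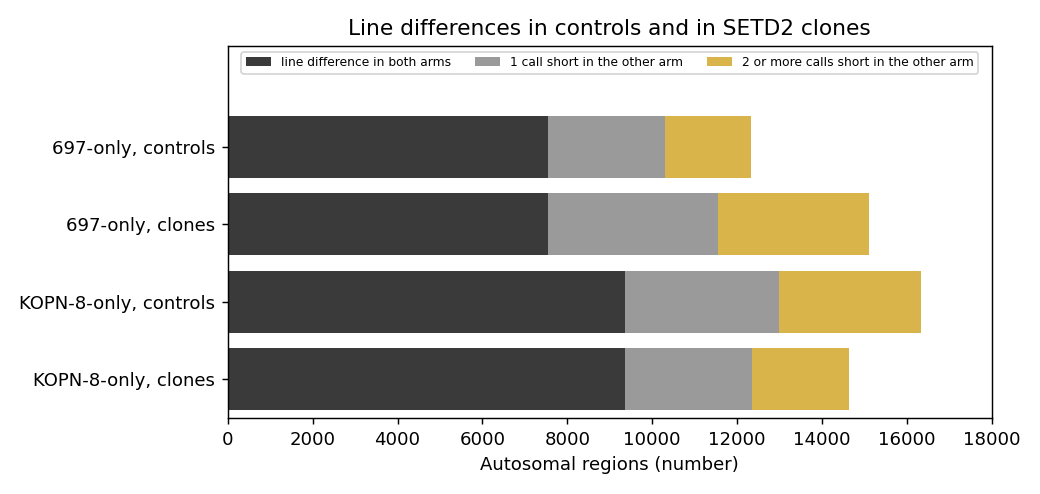
Number of autosomal regions specific to 697 or to KOPN-8 in each arm (controls or clones), 1 bar per line and arm. Black parts are differences seen in both arms (7550 and 9362), grey parts are 1 library call short of the same difference in the other arm, and yellow parts are 2 or more calls short.

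A difference vanishes as soon as 1 of 4 clone libraries departs from the pattern, and this was the most frequent case. Of the vanished 697 differences, 2756 were 1 call short and 2020 were 2 or more calls short. For KOPN-8 these numbers were 3627 and 3346. Library by library, the 697 differences of the controls were called in 78.2% and 86.9% of cases by the 697 clone libraries and in 10.3% and 11.4% by the KOPN-8 clone libraries. The KOPN-8 differences were called in 81.5% and 78.7% of cases by the KOPN-8 clone and in 9.37% and 16.6% by the 697 clone. In both lines the longer 697 clone list made more of the calls, in its own regions and in those of the other line.

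Losses of a call in the line's own clone were more frequent than new calls in the other clone. Among 697 differences, 2787 (22.6%) vanished only through missing calls in the 697 clone, 1651 (13.4%) only through new calls in the KOPN-8 clone and 338 through both. Among KOPN-8 differences, 3812 (23.3%) vanished through the KOPN-8 clone, 2542 (15.6%) through the 697 clone and 619 through both. No clone library of either line called 1083 of the 697 differences and 1836 of the KOPN-8 differences. All 4 clone libraries called 599 and 891, which became regions shared by the lines.

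Persistence was higher for regions that were stronger in the controls, except at the top of the 697 lists. Of 697 differences whose weaker control peak lay at or below the 20th percentile of its list, 1515 of 3503 (43.2%) persisted, and of those between the 60th and 80th percentile 1313 of 1669 (78.7%) did. Above the 80th percentile the 697 share was lower again, 73.0% of 629. For KOPN-8 the shares in these 3 ranges were 40.1% of 4198, 76.0% of 2478 and 76.9% of 1061. Above the 80th percentile, both libraries of the line's own clone called 99.2% of the regions in each line, so few regions of this strength were missing from their own clone. New calls in the other clone were at least as frequent among strong regions as among weak ones. At least 1 KOPN-8 clone library called 11.3% of the weakest and 26.2% of the strongest 697 differences, and at least 1 697 clone library called 16.6% of the weakest and 22.5% of the strongest KOPN-8 differences. Regions of all 4 controls at or below the 20th percentile of the line's own lists were kept by both libraries of the 697 clone in 77.8% of cases and by those of the KOPN-8 clone in 64.9%. Of the line-specific regions of that strength, 50.01% and 50.07% were kept, and this difference between shared and specific regions was not tested.

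**Figure D2:**
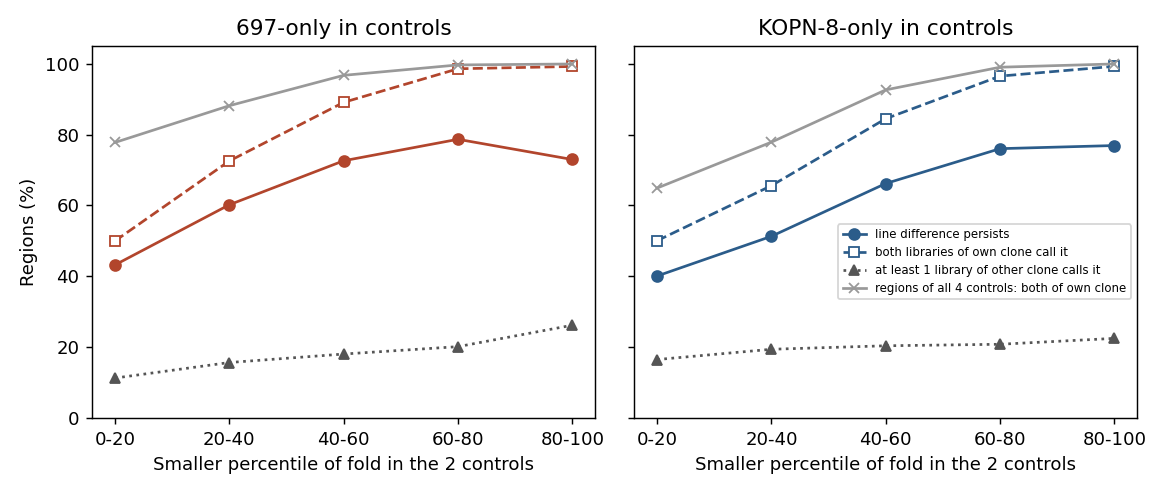
Percent of control line differences (y axis) by the smaller percentile of fold in the 2 controls that call them (x axis), for 697 on the left and KOPN-8 on the right. Filled circles show persistence, open squares the share called by both libraries of the line's own clone, triangles the share called by at least 1 library of the other clone, and crosses the share of regions open in all 4 controls that the own clone called in both libraries. In both panels the squares reach 99.2% above the 80th percentile, while the triangles stay between 11.3% and 26.2%.

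Persisting differences were ranked by their smallest percentile over the 4 lists of their line. The first ones are therefore high in all 4 libraries by this rule. For 697 the first was at chr3:61236866-61237429, where control folds were 20.5 and 22.8 and clone folds 18.99 and 22.3, and no KOPN-8 library called it. At chr5:2687777-2688228 the control folds were 16.9 and 19.2 and the clone folds 20.1 and 24.3. Both clone values of this region lay above both control values, whereas at the chromosome 3 region they overlapped. The others of the first 8 were at chr9:15592863-15593327, chr2:54557297-54558333, chr12:100557612-100558034, chr11:43901943-43902850, chr2:30845129-30845818 and chr13:103506975-103507605. All 8 had peaks above the 96th percentile in each of the 4 lists.

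For KOPN-8 the first persisting region was at chr12:27396880-27397737, where control folds were 19.2 and 19.9 and clone folds 21.6 and 19.5. It was followed by chr13:40976151-40976898, with control folds of 18.4 and 18.5 and clone folds of 22.1 and 20.3. No 697 library called either. The others of the first 8 were at chr12:95260793-95261430, chr9:113637311-113637983, chr6:76884197-76884833, chr3:25831313-25832075, chr10:18333843-18334542 and on chromosome 8. The smallest percentile of these 8 regions over the 4 lists was 98.6.

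The strongest regions that vanished by 2 or more calls still had their peak in their own clone and had new, lower peaks in the other. For 697 the first was at chr3:130801817-130802399, where control folds were 17.4 and 16.9 and clone folds 16.9 and 16.2. The KOPN-8 clone called it with folds of 6.63 and 7.93 and the KOPN-8 controls did not call it. At chr1:91869673-91870567 the 697 folds were 15.5 and 16.1 without the edit and 15.8 and 16.1 in the clone, beside new KOPN-8 folds of 5.32 and 4.96. The other 3 of the first 5, at chr2:6500686-6501561, chr7:36798488-36799294 and chr6:114912335-114912866, were also called by all 4 clone libraries, with KOPN-8 folds between 3.79 and 6.33. The regions on chromosomes 2 and 7 were lower in the 697 clone than in its controls, at 11.8 and 13.3 against 16.3 and 15.4 on chromosome 2 and at 13.7 and 14.2 against 15.5 and 14.9 on chromosome 7. Over all 599 regions of this kind the median of the smaller percentile was 51.8 in the 697 clone and 20.2 in the KOPN-8 clone. These regions were chosen as called in both 697 controls and in no KOPN-8 control, a choice that itself favours higher 697 values.

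Among KOPN-8 differences the first vanished region was stronger in the 697 clone than those. It lay at chr19:23982031-23982612, where KOPN-8 control folds were 19.8 and 18.8 and KOPN-8 clone folds 17.02 and 18.5. No 697 control called it, and the 697 clone called it with folds of 8.84 and 10.46, at the 74.3 and 82.3 percentiles of its lists. At chr7:157300609-157301249 the KOPN-8 control folds were 16.1 and 18.9 and the clone folds 23.3 and 19.02, and the 697 clone called it with 7.70 and 11.4. The regions at chr6:164177053-164177730, chr1:65329720-65330237 and chr6:115379620-115380734 had weak new 697 peaks with folds between 3.56 and 5.34. In the 891 regions that all 4 clone libraries called, the median smaller percentile was 47.8 in the KOPN-8 clone and 25.7 in the 697 clone. Their control calls were again part of the choice.

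Ranked instead by the strength of the new calls, an order chosen after the values were seen, the first region that the 697 clone had acquired was at chr20:41160112-41160790. Its folds were 11.5 and 14.8 in the 697 clone, 14.1 and 14.0 in the KOPN-8 controls and 12.2 and 13.9 in the KOPN-8 clone, with no call in the 697 controls. The 697 clone values overlapped those of KOPN-8, so neither calls nor folds separated the clones there. At chr19:30185504-30185848 the folds were 10.7 and 10.46 in the 697 clone, 11.7 and 6.90 in the KOPN-8 controls and 10.8 and 10.6 in the KOPN-8 clone. The region at chr4:11136533-11136982 went further, with 11.1 and 12.2 in the 697 clone against 6.17 and 7.05 for the clone of KOPN-8. For the other direction, the KOPN-8 clone called chr10:89264196-89265402 with a fold of 12.7 in both its libraries, above the 7.22 and 8.27 of the 697 clone, and no KOPN-8 control called it.

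Of the 7570 differences of 697 that appeared, 4833 did so only through new calls in the 697 clone, 2030 only through missing calls in the KOPN-8 clone and 707 through both. Of the 5283 of KOPN-8, 4040 appeared only through the KOPN-8 clone, 967 only through the 697 clone and 276 through both. The strongest ones by the naming rule were of the less frequent kind, open in their own controls and no longer called in the other line. The first for 697 was at chr2:219823880-219824650, where 697 folds were 17.8 and 15.9 without the edit and 18.5 and 19.5 with it. The KOPN-8 controls had called it weakly, at 4.07 and 4.48, and the KOPN-8 clone did not call it. The next were at chr10:19291874-19292988, chr18:27524245-27524946, chr9:16207169-16207594 and chr4:83701743-83702549, where the KOPN-8 control folds lay between 3.95 and 6.32. The first for KOPN-8 was at chr3:160166997-160167959, where folds were 16.8 and 16.5 in the KOPN-8 controls, 14.9 and 17.3 in the KOPN-8 clone and 3.90 and 5.83 in the 697 controls, which the 697 clone had lost. The other 4 were at chr3:95106158-95106893, chr6:116730917-116731360, chr12:48591656-48592457 and chr12:104609353-104609850. All 10 regions were already open in both controls of their line.

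Some differences had no call in any control of either line, 2149 for 697 and 1841 for KOPN-8. The strongest of these, chosen after the values were seen, was at chr3:75629148-75629677 in 697, with folds of 10.3 and 11.8. Of the first 5 in 697, 3 lay on chromosome 19, starting at 28977860, 31711450 and 23692562. In KOPN-8 the strongest was at chr10:101418902-101419392, with folds of 12.2 and 14.5, followed by chr6:6943048-6943523 with 12.6 and 10.9. Conversely, the strongest 697 difference that no clone library called was at chr12:93771264-93771872, with control folds of 11.5 and 12.5. The strongest such KOPN-8 difference was at chr18:34704442-34704830, with control folds of 11.6 and 12.7.

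A region could also change sides. Of the 128960 regions 89 did, 27 from 697 in the controls to KOPN-8 in the clones and 62 the other way. They were weak, with a median of 13.7 for the smallest percentile of the 4 calls, and in 3 of them all 4 peaks lay above the 50th percentile. The first was at chr3:141943711-141944662. The 697 controls called it with folds of 10.4 and 8.68 and the KOPN-8 clone with 10.8 and 13.3, while the 697 clone and the KOPN-8 controls did not call it. The second was at chr4:95822376-95823247, called by the KOPN-8 controls with 12.7 and 10.7 and by the 697 clone with 8.12 and 6.39. The third, at chr1:116272437-116272797, had folds of 9.87 and 6.58 in the KOPN-8 controls and 6.27 and 6.68 in the 697 clone.

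The chromosomes differed widely in which line held the specific regions. Chromosomes 17, 19, 20 and 22 leaned to KOPN-8. On chromosome 20, 601 of 2158 regions (27.8%) were specific to the KOPN-8 clone and 130 (6.02%) to the 697 clone, a ratio of 4.62. On chromosome 17 the numbers were 623 and 141 of 2724, on chromosome 19 they were 411 and 110 of 2355 and on chromosome 22 they were 254 and 98 of 1281. Chromosomes 8 and 21 leaned most to 697. On chromosome 8, 1216 of 6906 regions (17.6%) were specific to the 697 clone and 631 (9.14%) to the KOPN-8 clone, and on chromosome 21, 273 (19.1%) and 138 (9.63%) of 1433 were. The 697-specific regions outnumbered the KOPN-8-specific ones on 11 of 22 autosomes in the clones and on 5 in the controls. With lists of equal length they did so on 10 in the clones, and in the merge of all 8 lists the controls then had more 697 differences on 11, so this contrast between the arms was not seen at equal length. In the clones the lean of 21 autosomes was the same with lists of equal length, where chromosome 10 changed sides, and with calls covering 50% of a region, where chromosome 1 did. The lean of all 22 was the same in the strongest 50% of each list.

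**Figure D3:**
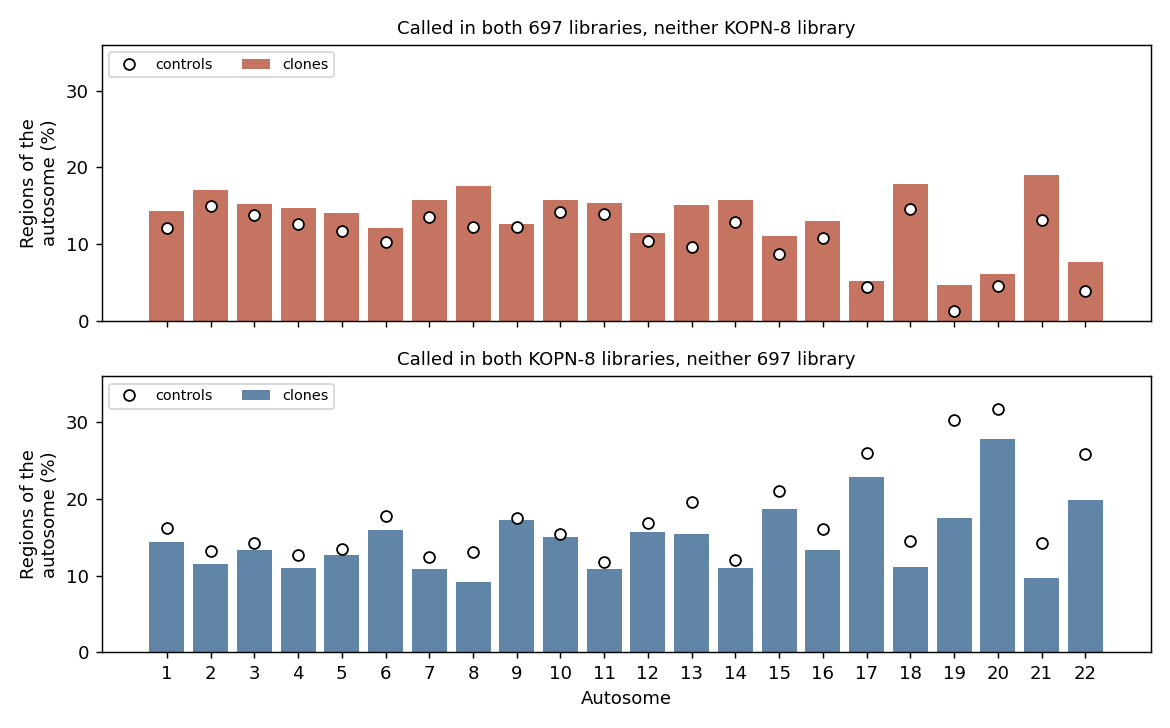
Percent of an autosome's regions specific to 697 (upper panel) and to KOPN-8 (lower panel), in the clones (bars) and in the controls (circles), by autosome. Bars for KOPN-8 reach 27.8% on chromosome 20, and on chromosome 19 the circle lies at 30.3% above a bar of 17.5%.

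On chromosome 19 the smallest share of KOPN-8 differences persisted. In the controls 655 of its 2162 regions (30.3%) were specific to KOPN-8 and 26 (1.2%) to 697, a ratio of 25.2, and in the clones the ratio was 3.74. Of 631 KOPN-8 differences there in the merge of all 8 lists, 267 (42.3%) persisted, the lowest share of all autosomes, against a median of 57.4% over the 22. With lists of equal length 43.4% persisted, and 35.4% did in the strongest 50% of each list. Of the 109 697-specific regions of the clones on chromosome 19, 87 (79.8%) had appeared, the highest share of all autosomes. The share of autosomal peaks on chromosome 19 was 1.51% and 1.61% for the 697 controls and 2.05% and 2.07% for the 697 clone. For KOPN-8 it was 2.85% and 2.95% without the edit and 3.07% and 2.90% with it. Both 697 clone values lay between those of the 697 controls and those of KOPN-8, as they did on chromosomes 17, 20 and 22. The share of 697 relative to KOPN-8 was 0.538 in the controls and 0.692 in the clones.

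On chromosomes 8 and 13, as on most autosomes, the KOPN-8-specific regions were fewer in the clones than in the controls. Over all autosomes they went from 16634 to 14808, and on chromosome 19 from 655 to 411. On chromosome 8 the controls had 998 KOPN-8-specific and 935 697-specific regions, while the clones had 631 and 1216. This change of side depended on list length. In the merge of all 8 lists the controls had 987 KOPN-8 and 924 697 differences, but 791 and 821 with lists of equal length and 498 and 503 in the strongest 50%. In the merge of the 4 clone lists, the clones under these settings had 617 KOPN-8-specific and 852 697-specific regions, and 381 and 671. Of the 987 KOPN-8 differences in the merge of all 8 lists, 467 (47.3%) persisted. Another 151 appeared, which was 24.4% of the clone differences and the lowest share of all autosomes. The persisting share was 54.7% with lists of equal length and 56.8% in the strongest 50%. The chromosome took 5.07% and 5.24% of autosomal peaks in the KOPN-8 clone, against 6.55% and 6.54% in its controls and 6.70% and 6.87% in the 697 clone. On chromosome 13 the KOPN-8-specific regions numbered 702 in the controls and 487 in the clones, and the 697-specific ones 342 and 475. Its share was 2.83% and 2.82% in the KOPN-8 clone and 2.65% and 2.72% in the 697 clone, beside 3.51% and 3.39% in the KOPN-8 controls. The share of 697 relative to KOPN-8 thus went from 0.777 to 0.952.

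**Figure D4:**
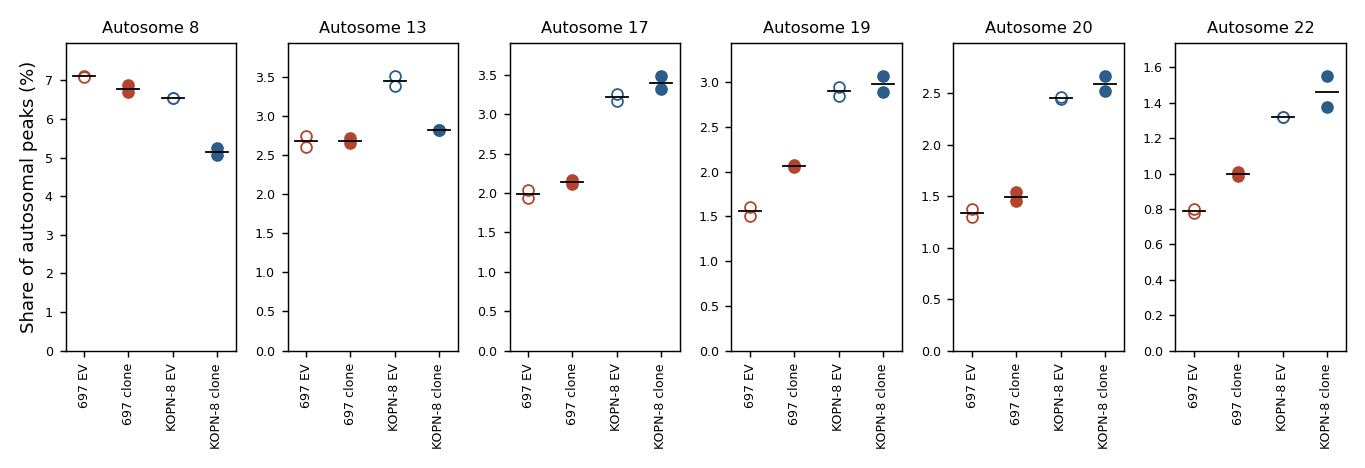
Share of autosomal peaks (%) on chromosomes 8, 13, 17, 19, 20 and 22 in each library, with 2 points per group and a line at their mean. EV stands for empty vector, open points are controls and filled points clones, red is 697 and blue KOPN-8. On each of these chromosomes the lines stay apart in both arms, though on chromosome 13 the clones lie close together. On chromosomes 17, 19, 20 and 22 the 697 clone lies between its controls and KOPN-8.

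On chromosomes 17, 20 and 22 the peak shares of the lines did not overlap in either arm, nor did they on chromosomes 8, 13 and 19. On chromosome 20 the shares were 1.46% and 1.54% in the 697 clone and 2.67% and 2.52% in the KOPN-8 clone, and the ratio of 697 to KOPN-8 was 0.578 in the clones and 0.545 in the controls. Of its 622 KOPN-8 differences 407 (65.4%) persisted, the highest share of all autosomes. On chromosome 17 the ratio was 0.629 in the clones and 0.619 in the controls, and on chromosome 22 it was 0.682 and 0.599. The counts on chromosome 22 moved further, from 280 KOPN-8-specific and 42 697-specific regions in the controls, a ratio of 6.67, to a ratio of 2.59 in the clones, and 69 of its 98 697 clone differences (70.4%) had appeared. The ratio went from 7.06 to 4.62 on chromosome 20 and from 5.92 to 4.42 on chromosome 17. The change of the line difference from controls to clones was tested by exact permutation of arm labels within each line, with 36 arrangements. In this design the exact p cannot go below 0.0556, and by this exact permutation 0 of 22 autosomes had an unadjusted p under 0.05 (smallest Benjamini-Hochberg adjusted p = 0.306). For chromosome 8 the exact p was 0.333, for 13 it was 0.167 and for 19 it was 0.278 (n = 2 per group). The line difference there changed by 1.07, 0.632 and 0.421 percentage points. The smallest p needs clone shares apart from the controls in both lines, in opposite directions. On chromosomes 8 and 19 the mean shares of both lines moved the same way, and on 13 the 697 arms overlapped, so p could not reach it. These p therefore do not rank the autosomes by size of change.

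In windows of 10 Mb with at least 60 regions in each arm, the balance of the lines was largely preserved. The balance was taken as the percent of a window's regions specific to 697 minus the percent specific to KOPN-8. Over 280 windows it had a median of -2.44 in the controls and 2.38 in the clones, and 235 windows leaned the same way in both arms. Pearson's r between the arms was 0.89 across windows, which share their libraries and are not replicates. Another 41 windows went from KOPN-8 in the controls to 697 in the clones and 3 the other way. With lists of equal length 23 and 13 did so, and the medians were -0.326 and 0.878, so the shift of the median was smaller.

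**Figure D5:**
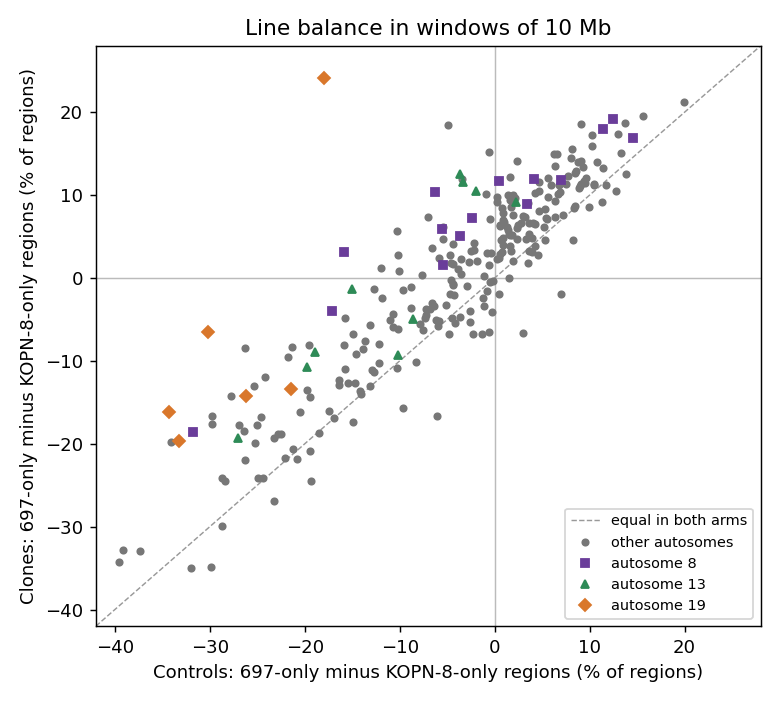
Balance of line-specific regions in 280 windows of 10 Mb, controls on the x axis and clones on the y axis, as percent specific to 697 minus percent specific to KOPN-8. Points rise along the dashed line of equal balance but mostly lie above it, with a median change from controls to clones of 4.12. The window of chromosome 19 between 20 and 30 Mb lies furthest above it, at -17.9 in the controls and 24.1 in the clones.

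The window that departed most from its controls was on chromosome 19 between 20 and 30 Mb. In the controls 4 of its 78 regions were specific to 697 and 18 to KOPN-8, and in the clones 33 of 112 and 6 were. The 697 lists held 42 and 48 peaks there without the edit and 87 and 99 with it. The KOPN-8 lists held 66 and 60 without the edit and 66 and 58 with it. The 697 clone therefore lay above all other libraries, while both KOPN-8 groups overlapped. With lists of equal length the specific regions numbered 4 and 16 in the controls and 31 and 5 in the clones. Next to it, between 30 and 40 Mb, KOPN-8-specific regions went from 91 of 292 to 45 of 324 and 697-specific ones from 3 to 24. On chromosome 15 between 20 and 30 Mb the balance went from -4.96 to 18.5, with 63 and 84 peaks per 697 control, 122 and 141 per 697 clone library and between 73 and 81 in the KOPN-8 lists. Opposite to these, on chromosome 4 between 130 and 140 Mb the balance fell from -6.07 to -16.7, with 86 and 113 peaks per 697 control, 47 and 65 per 697 clone library and between 109 and 152 in the KOPN-8 lists.

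Other windows held a strong line difference in both arms. On chromosome 9 between 80 and 90 Mb the KOPN-8 lists held between 162 and 178 peaks and the 697 lists between 56 and 75, and 80 of 207 regions of the clones were specific to KOPN-8 and 12 to 697. On chromosome 10 between 130 and 140 Mb, 73 of 172 were specific to KOPN-8 and 13 to 697. On chromosome 9 between 10 and 20 Mb the reverse was seen, with 91 of 357 regions specific to 697 and 15 to KOPN-8. The 697 lists held 250 and 299 peaks there without the edit and 217 and 260 in the clone, all above the 4 KOPN-8 lists, whose highest value was 167.

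Line-specific regions followed each other along the chromosomes more often than their share of all regions, though most had no such neighbour. The region following a 697-specific one was also 697-specific in 24.2% of cases, against 14.2% of all regions, and for KOPN-8 in 23.8% of cases against 13.7%. By autosome these shares of all regions ranged from 4.67% to 19.1% for 697 and from 9.14% to 27.8% for KOPN-8. How much of the excess comes with this lean of whole autosomes was not tested. Runs of 5 or more neighbours numbered 93 for 697 and 98 for KOPN-8. The longest was of 14 697-specific regions at chr5:2660900-3198192, over 537 kb. The 697 controls held 10 and 13 peaks there and the 697 clone 14 each, the KOPN-8 controls held 1 and 0 and the KOPN-8 clone held none. In the merge of all lists 9 control differences of 697 lay in this run and all 9 persisted. Runs of both lines are made of regions specific to a clone, so persistence within them is largely fixed by that choice. The most compact of the first 6 runs of 697 held 10 regions within 72.6 kb at chr9:37954065-38026617.

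The longest run specific to KOPN-8 held 10 regions at chr3:56759257-56836439. The KOPN-8 controls held 10 and 11 peaks there and the KOPN-8 clone 10 each, and the 697 controls held 1 each and the 697 clone none. All 9 control differences of KOPN-8 in this run persisted, which here and in the runs below is again largely fixed by how runs were chosen. A run of 9 regions lay at chr10:22761987-22795488, where 8 of 9 control differences persisted. The most compact run among the first 6 was at chr2:66660561-66674042, with 7 regions in 13.5 kb. Each KOPN-8 library, control or clone, held 7 peaks in it, against 0 and 1 in the 697 controls and none in the 697 clone, and all 6 control differences persisted.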

How the data were processed

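ATAC-seq peaks of 8 libraries were analysed. The submitters' processing notes name Bowtie2, hg19 and MACS2. Their versions and settings, any removal of duplicates and any cut-site shift are not given in these sources. The deposited lists hold 1 set of peaks per library with 1 value per peak, which no header names and which was read from its range as a fold, a linear ratio of pileup to local background. Read depth is unknown, and the lists hold 57154 to 76495 peaks.

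Autosomal peaks sharing at least 1 bp were merged with Python 3.11.15, and the percentile of the fold was taken within each whole list. A line difference is a region called in both libraries of one line and in neither of the other, separately in controls and clones. Counts of regions have no test, since regions are not replicates. Values per library were compared by exact permutation. Named regions are the first 8 persisting and the first 5 vanishing and appearing regions per line, ranked by the smaller percentile, vanishing and appearing ones being at least 2 calls short. Alternatives were the strongest 50% of each list, lists of equal length, calls covering 50% of a region, leaving out a library at a time and blocking by replicate number. Leaving out chromosomes 8, 13 and 19 was chosen after seeing the data. The comparison and its rules were chosen with earlier results of these data known. The calling code was tested on simulated data and recovered all 1400 planted regions of 7 kinds among 40000. Planted regions had fixed call patterns and false differences were not counted, so this checks the code and not the error rate in these lists. Gene lists, promoters and motifs were not analysed here, because no annotation or genome in hg19 was used. Sex chromosomes were left out by the rule of the comparison.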

Additional observations from a re-analysis of the deposited data

Results flagged for a closer look

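On 4 autosomes the peak share of both clone libraries moved away from both controls in opposite directions in the 2 lines, so that the line difference (697 minus KOPN-8) of the clones was lower than that of the controls. On chromosome 3 it changed by -0.394 percentage points of autosomal peaks, on chromosome 9 by -0.337, on chromosome 10 by -0.303 and on chromosome 11 by -0.296. The 697 shares on chromosome 3 were 7.85% and 7.70% without the edit and 7.53% and 7.54% with it, and the KOPN-8 shares 7.01% and 7.05% against 7.11% and 7.25%. Each of the 4 had p = 0.0556, the smallest that exact permutation within lines can give, and adjusted p = 0.306. The test gives this p wherever libraries move in the pattern described, so the p restates the pattern and adds no support to it. Shares sum to a fixed total, and without chromosomes 8, 13 and 19, a choice made after seeing the data, the changes were -0.251, -0.268, -0.206 and -0.192, with p between 0.0556 and 0.222 by exact permutation.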

How the results depend on the processing

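Counts fell with the strongest 50% of each list: 8778 regions were specific to the 697 clone and 7907 to the KOPN-8 clone, 4724 differences of 697 persisted, 2277 vanished and 4036 appeared, 5105 of KOPN-8 persisted, 3514 vanished and 2772 appeared, 50 changed sides, and 1 autosome reached the smallest p against 4. Without chromosomes 8, 13 and 19, 2 autosomes did. With 1 library left out, which loosens the rule, 17375 to 30525 regions were specific to the 697 clone and 15690 to 23400 to the KOPN-8 clone. For 697, 7983 to 9643 persisted, 3454 to 15616 vanished (most without control 1) and 5516 to 20990 appeared (most without clone 1). For KOPN-8, 9509 to 10826 persisted, 5692 to 15545 vanished (most without control 2) and 3867 to 12266 appeared (most without clone 2). Between 178 and 231 changed sides, and 2 to 4 autosomes reached the smallest p, with 2 without KOPN-8 control 1 or clone 1. The mean number of peaks, 697 clone minus KOPN-8 clone, was 3759.5 and ranged from -2861.5 without 697 clone 2 to 10380.5 without 697 clone 1. The difference in median width ranged from -8.5 to -3.5 bp. Equal length and 50% cover moved none of these counts of regions by more than 1.5 times. Equal length did move the windows that changed lean, from 41 to 23 towards 697 and from 3 to 13 towards KOPN-8.

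With replicate number as a block, the difference in peak number was 3759.5 (exact permutation, p = 1) and that in median width -6.0 bp (p = 0.5, the smallest this pairing allows). Same-numbered clone libraries deviated with r = 0.0069 for calls over regions and 0.22 for peak shares over autosomes. With 2 pairs and no label that ties the numbers, the samples share only a number. Unknown depth limits all counts, since weak peaks come and go with list length.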
